A study of Mus musculus with 12 samples.

Results

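The miR-15/16 seed family is a group of microRNAs (miRNAs) that begin with nearly the same bases. Its 6 members on the panel were taken by probe name from a table of 599 probes, namely mmu-miR-15a, mmu-miR-15b, mmu-miR-16, mmu-miR-195, mmu-miR-322 and mmu-miR-497, written below without the mouse prefix. They were measured in 12 libraries of ileum RNA, all from male mice aged 23 days, of the NOD/ShiLtJ strain, which spontaneously develops autoimmune diabetes. The groups were 4 control mice, 4 mice described as 1PAT antibiotics and 4 mice given cecal material transfer. Dams with their litters were assigned to the groups at random. The sources used here do not give the antibiotic, its dose or its timing, nor whether the transfer mice had first received antibiotic. No litter is given per library, so replicate libraries may come from 1 litter, the p-values measure only the spread between these libraries, and litter and treatment cannot be told apart.

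A miRNA guides a silencing complex to messenger RNAs that pair with its seed, the bases near its 5′ end, so miRNAs of 1 seed share many predicted targets. The miR-15/16 family is known for restraining the cell cycle, with targets that include cyclins D and E, cell-cycle kinases and the survival factor Bcl2. In the small intestine, dividing cells lie in the crypts and differentiated cells on the villi, while muscle, connective tissue, vessels and leukocytes lie beneath.

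The mature sequences are shown because the shared seed defines the family. All 6 names were matched to RefSeq entries on GRCm38.p6, with a name lacking an arm taken as the 5′ arm and miR-195 and miR-497 as the entries miR-195a and miR-497a. Capitals mark bases 2 to 8, the seed.
miR-15a: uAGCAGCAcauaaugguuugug
miR-15b: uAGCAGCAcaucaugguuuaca
miR-16: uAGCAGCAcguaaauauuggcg
miR-195: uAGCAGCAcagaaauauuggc
miR-322: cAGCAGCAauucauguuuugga
miR-497: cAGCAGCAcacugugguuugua

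All 6 carried the seed AGCAGCA. Among the mature miRNAs of the same RefSeq source, 10 from mouse carried it, and the members were the 6 of these on the panel. Past the seed they differed: miR-16 and miR-195 were identical at 19 of 21 aligned bases, miR-15a and miR-15b at 18 of 22, and miR-195 and miR-322 at only 11 of 21. How far such similar miRNAs are counted by each other's probe was not tested.

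The members come from 4 genomic clusters. Mature miR-15a lies at chr14:61632075-61632096 on the minus strand, in a hairpin 54 bases from that of miR-16-1, both within the span of the long non-coding RNA gene Dleu2. Mature miR-15b lies at chr3:69009775-69009796 on the plus strand, in a hairpin 66 bases from that of miR-16-2, both within the span of Smc4, a gene for a condensin subunit. The mature miR-16 of both copies is the same molecule, at chr14:61631936-61631957 and chr3:69009918-69009939, so its probe cannot separate them. miR-497, at chr11:70234730-70234751, and miR-195, at chr11:70235062-70235082, both on the plus strand, have hairpins 241 bases apart. miR-322, the mouse counterpart of human miR-424, lies at chrX:53054306-53054327 on the minus strand within the span of the long non-coding RNA gene C430049B03Rik. Exons and introns of these host genes were not used here.

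The deposited values are normalised signals in arbitrary units, each a whole count times 1 factor per library. Recovered total counts were 169844 to 274302 in the control group, 120235 to 148297 after antibiotic and 280114 to 393551 after cecal transfer, ranges that did not overlap, so depth and treatment cannot be told apart. Of the 566 mouse probes, 226 exceeded 32 units in at least 4 libraries and were tested, all 6 members among them. Tests used limma on log2(signal + 1), with p-values adjusted over the 226 probes and a threshold of 0.05. In this fit 0% of the tested probes were called in antibiotic against control, 30.1% in cecal transfer against control and 32.7% in cecal transfer against antibiotic. The calls for cecal transfer were 41 higher and 27 lower against control (28 and 28 with median centring, 26 and 27 with quantile normalisation) and 45 higher and 29 lower against antibiotic (22 and 32, and 23 and 28). All 8 epithelial marker probes exceeded the limit and were tested. The design text speaks of intestinal epithelial cells, yet 4 of 5 smooth muscle and fibroblast markers were also tested, with a summed signal of 28183 to 35486 in control libraries.

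After cecal transfer 1 family member, miR-322, was higher than in control, by 3.85-fold, and it was also 2.56-fold higher than after antibiotic. miR-497 was 1.47-fold lower after cecal transfer than after antibiotic. miR-16 lay 1.12-fold below control and 1.14-fold below antibiotic in the cecal transfer libraries without passing the threshold. miR-15a, miR-15b and miR-195 passed in no comparison. Between antibiotic and control 0 of 6 members passed in limma, edgeR or DESeq2, and 1, miR-497, had an unadjusted limma p under 0.05, as had 15% of the tested probes.

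**Figure D1:**
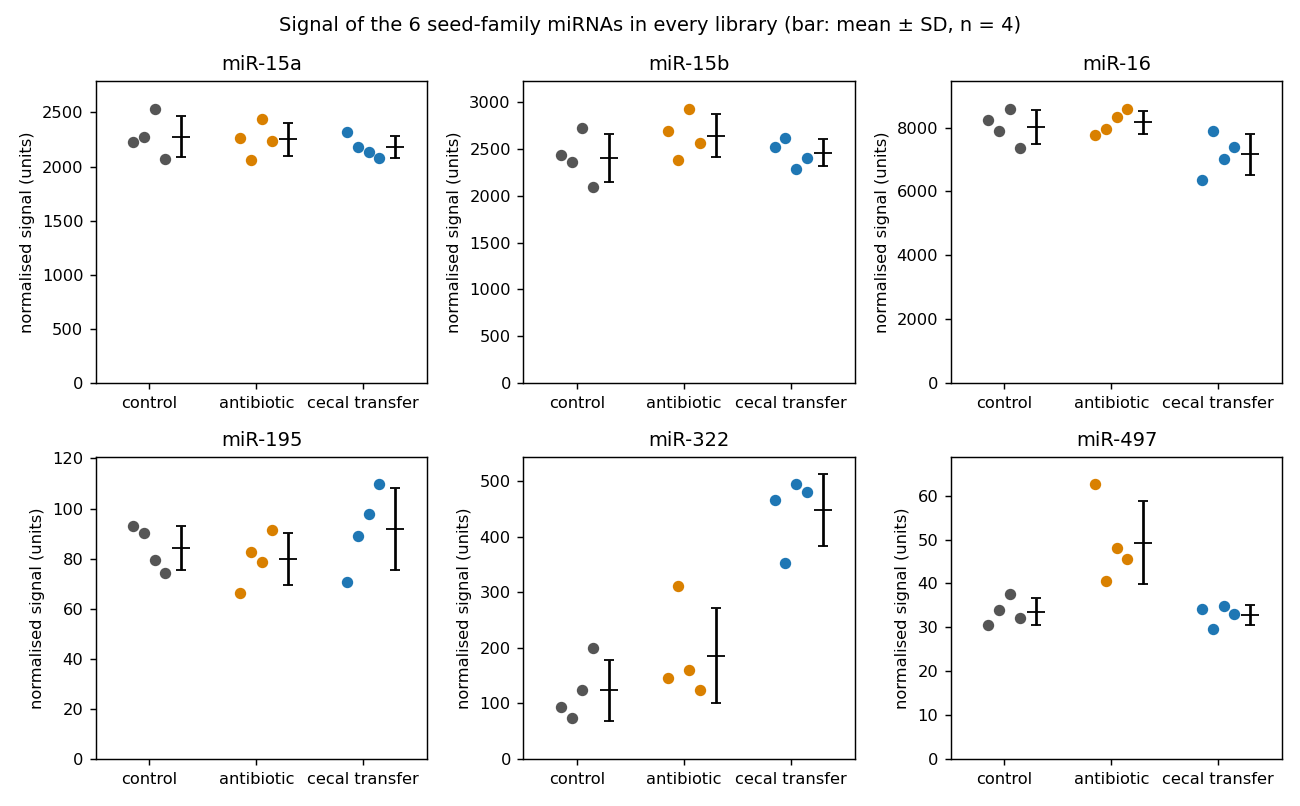
Normalised signal (vertical axes, units, starting at 0) of each family member in the 12 libraries, by group; points are libraries and bars the mean ± SD (n = 4). The 4 cecal transfer libraries of miR-322 lie between 353 and 495 units, above all control and antibiotic libraries, while miR-15a, miR-15b and miR-195 overlap between all groups.

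miR-322 is induced in differentiating muscle cells and restrains division there by acting on the cell-cycle phosphatase Cdc25A. Its signal in the control libraries was 93.8, 74.4, 124 and 200 units, in the antibiotic libraries 146, 312, 160 and 124, and in the cecal transfer libraries 465, 353, 495 and 481. The lowest cecal transfer library lay above the highest antibiotic library. Groups did not overlap in that comparison for 33.6% of the tested probes. The antibiotic and control ranges of miR-322 overlapped. The group means were 123 ± 55.4 (SD, n = 4) for control, 185 ± 85.5 for antibiotic and 449 ± 64.6 for cecal transfer.

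Against control, the log2 fold change of miR-322 in cecal transfer libraries was 1.94 (SE 0.29, 95% interval 1.31 to 2.58, limma adjusted p = 0.000281). The groups did not overlap, which held for 29.6% of the tested probes. This was the highest log2 fold change of the 226 tested probes, 18.1% of which were called higher. Against antibiotic the log2 fold change was 1.35 (SE 0.29, interval 0.72 to 1.99, adjusted p = 0.004), rank 2 of 226, with 19.9% called higher. Antibiotic against control gave 0.59 (SE 0.29, interval −0.04 to 1.22, adjusted p = 0.34), so neither a difference of 0 nor a 2-fold rise was outside the interval.

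The recovered counts behind these signals were 70 to 175 in control libraries, 79 to 192 in antibiotic and 524 to 816 in cecal transfer ones. The cecal transfer libraries were also the deepest, so their higher counts are no separate support for the difference. With log2 depth as a covariate, the change against control was 2.25 (adjusted p = 0.0146) and the change against antibiotic 1.98 (SE 0.84, adjusted p = 0.29), which ended the second call. Thinned to the shallowest library or fitted with any 1 library left out, both calls held.

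The spread of miR-322 within groups was large. Its pooled within-group SD was 0.50 on the log2 scale, against a median of 0.19 over all tested probes. The highest libraries of their groups were control replicate 4 at 200 units and antibiotic replicate 2 at 312. Without antibiotic replicate 2 the antibiotic difference from control was 0.31, and without control replicate 4 it was 0.86, neither past the threshold.

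Over the 12 libraries, the tested probes outside the family whose log2 signal followed miR-322 most closely were miR-10a (Pearson r = 0.97), miR-130a (0.90) and miR-301b (0.89). miR-10a is encoded in a Hox gene cluster, and miR-130a and miR-301b share another seed. These are descriptions over libraries that fall into groups, since all 3 were also higher after cecal transfer. With the group means removed, r was 0.88 for miR-10a, 0.45 for miR-130a and 0.32 for miR-301b. In antibiotic replicate 2, where miR-322 was high, miR-10a had 741 units against 402 to 438 in the other antibiotic libraries. In control replicate 4 miR-10a had 444 units against 272 to 317.

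**Figure D2:**
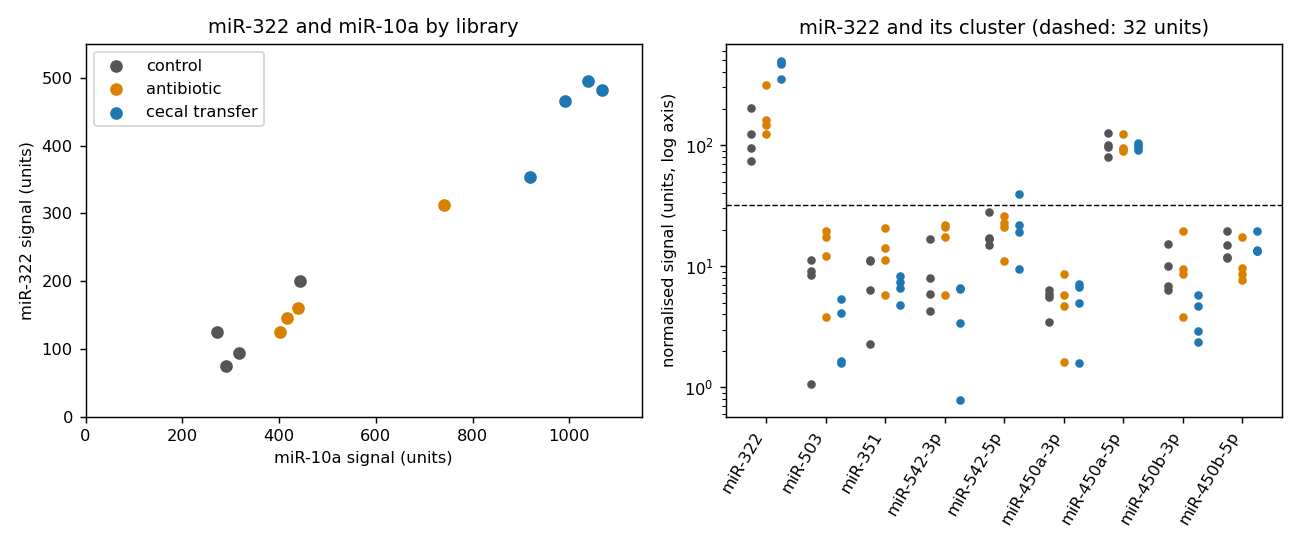
Left, miR-322 signal against miR-10a signal (both in units) by library; right, signal (units, log axis) of miR-322 and the 8 other probes of its X-chromosome cluster, coloured by group as on the left, with the 32-unit limit dashed. The libraries high in miR-322 are high in miR-10a, and in the cluster only miR-322 and miR-450a-5p lie above the limit in all 12 libraries.

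The neighbours of miR-322 in its cluster were read for comparison, since miRNAs of 1 primary transcript can be made together. Its hairpin lies 200 bases from that of miR-503, a relative that differs within the seed (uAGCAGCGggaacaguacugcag, capitals at bases 2 to 8) and that also restrains the cell cycle. Of the 8 other cluster probes, 6 stayed under 32 units in every library and miR-542-5p exceeded it in 1. miR-503 had 7.46 ± 4.42 units for control, 13.2 ± 6.95 for antibiotic and 3.19 ± 1.89 for cecal transfer, from 1 to 12 counts each, too few for a comparison. The median signal of the 33 herpesvirus probes, taken here as a background level, was 8.50 to 12.6, 7.69 to 13.0 and 5.55 to 8.77 units in the 3 groups. Of these probes 29 never exceeded 32 units, while 1 exceeded it in all 12 libraries, at 50.1 to 426 units. That probe lay above miR-322 in control replicate 1 (185 against 93.8 units) and control replicate 3 (426 against 124), and in no other library.

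miR-450a-5p was the 1 neighbour that could be tested. It had 79.7 to 126 units in control libraries, 89.7 to 123 in antibiotic and 91.2 to 103 in cecal transfer ones, with all ranges overlapping. Its log2 fold change after cecal transfer was −0.03 against control (interval −0.33 to 0.27, adjusted p = 0.917) and −0.02 against antibiotic (interval −0.32 to 0.28, adjusted p = 0.933). The interval of miR-322 against control began at 1.31. The difference between these changes was not itself tested.

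miR-497 is made with miR-195 from 1 cluster and restrains the cell cycle through cyclins and their kinases. Its values lay nearest the 32-unit limit, with 30.4, 34.0, 37.7 and 32.1 units in control libraries, 62.6, 40.6, 48.1 and 45.7 in antibiotic and 34.1, 29.7, 34.8 and 33.0 in cecal transfer ones. All antibiotic libraries lay above all others, and the control and cecal transfer ranges overlapped. It exceeded 32 units in 10 of 12 libraries, and lay at 3 to 6.25 times the library's median herpesvirus signal. The highest of the 33 herpesvirus probes nevertheless lay above miR-497 in each of the 12 libraries, and in 2 cecal transfer libraries 2 of them did.

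The group means of miR-497 were 33.6 ± 3.13 for control, 49.2 ± 9.44 for antibiotic and 32.9 ± 2.27 for cecal transfer. Cecal transfer against antibiotic had a log2 fold change of −0.55 (SE 0.16, interval −0.90 to −0.21, adjusted p = 0.0187), where 12.8% of the tested probes were called lower. Antibiotic against control had 0.53 (SE 0.16, interval 0.18 to 0.87, adjusted p = 0.119), which did not pass. Groups that did not overlap were found for 8.41% of the tested probes in that comparison and for 33.6% in cecal transfer against antibiotic. Cecal transfer against control had −0.03 (interval −0.37 to 0.32, adjusted p = 0.935).

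The order of the groups was another in the recovered counts. Counts follow depth, and group depths did not overlap, so this order alone does not compare miR-497 between groups. For miR-15a, whose signals overlapped, counts were 1811 to 2636 in control, 1267 to 1421 in antibiotic and 2575 to 3522 in cecal transfer libraries. miR-497 had 27 to 36 counts in control libraries, 25 to 36 in antibiotic and 42 to 56 in cecal transfer ones, while 1 count was worth 0.845 to 1.40, 1.57 to 1.92 and 0.590 to 0.83 units. The lowest count, 25, has an exact 95% Poisson interval of 16.2 to 36.9, which covers counting error only. The call of miR-497 was lost without antibiotic replicate 1, the highest library (log2 −0.43, adjusted p = 0.0564). It was also lost with background subtracted, thinning, DESeq2 or depth as a covariate. The depth fit gave log2 −0.0855 (SE 0.45, limma adjusted p = 0.921), beside an SE of 0.16 in the main fit. Group depths did not overlap, so that fit separates depth from treatment poorly. The part of depth in this result was not tested.

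**Figure D3:**
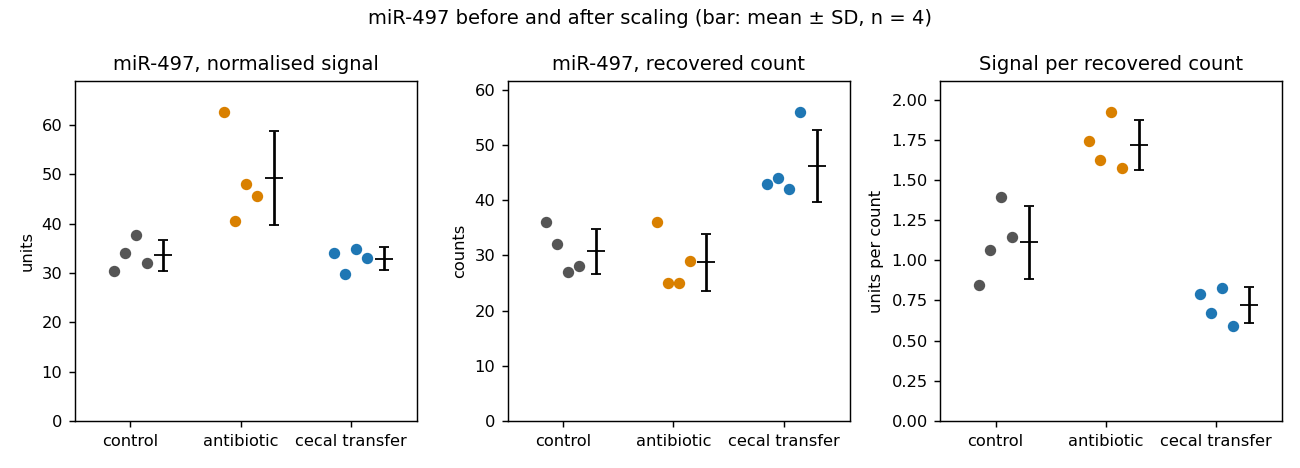
miR-497 by group as normalised signal (units), as recovered count, and the units that 1 recovered count was worth in each library; points are libraries, bars the mean ± SD (n = 4), all axes from 0. The antibiotic libraries are highest in signal, lowest to middle in counts (25 to 36) and highest in units per count. Counts also follow library depth, which differed between the groups.

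miR-195 shares 19 of 21 bases with miR-16 and its cluster with miR-497. It had 93.0, 90.3, 79.6 and 74.4 units in control libraries, 66.1, 82.8, 78.8 and 91.3 in antibiotic and 70.6, 89.0, 97.8 and 110 in cecal transfer ones. The 3 ranges overlapped, and 38 to 186 counts lay behind each value. Its log2 fold change was −0.08 in antibiotic against control (interval −0.40 to 0.23, adjusted p = 0.831). It was 0.11 in cecal transfer against control (interval −0.21 to 0.42, adjusted p = 0.668) and 0.19 against antibiotic (interval −0.12 to 0.51, adjusted p = 0.364). With log2 depth as a covariate the sign of all 3 turned, to 0.25, −0.21 and −0.46, with no adjusted p under 0.05. The SEs were then 0.23, 0.22 and 0.39, beside 0.15 without it. Group depths did not overlap, so this fit separates depth from treatment poorly. The intervals without the covariate leave room for changes of up to about 0.5 on the log2 scale. Over the 12 libraries miR-195 and miR-497 had r = −0.50, and −0.45 with the group means removed.

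miR-16 acts on cyclins D1 and E1 and is plentiful in red blood cells. It had 8223, 7897, 8594 and 7359 units in control libraries, 7778, 7948, 8342 and 8576 in antibiotic and 6343, 7887, 7013 and 7391 in cecal transfer ones. The cecal transfer libraries included the lowest, but replicates 2 and 4 lay within the control range, and replicate 2 also within the antibiotic range. The means were 8018 ± 524, 8161 ± 364 and 7159 ± 651.

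The log2 fold change of miR-16 in cecal transfer was −0.17 against control (SE 0.07, interval −0.32 to −0.01, adjusted p = 0.112) and −0.19 against antibiotic (SE 0.07, interval −0.35 to −0.04, adjusted p = 0.0543). Both had an unadjusted p under 0.05, as had 37.2% and 39.8% of all tested probes. Of 15 other settings, 3 called it against control and 8 against antibiotic. Quantile normalisation turned the sign, to 0.07 and 0.03. Without cecal transfer replicate 2 both differences passed, at −0.21 (adjusted p = 0.0462) and −0.24 (adjusted p = 0.0242). They also passed without control replicate 4, at −0.21 (adjusted p = 0.0458) and −0.19 (adjusted p = 0.0396), and the difference from antibiotic passed without control replicate 3 (−0.19, adjusted p = 0.0475), a contrast whose fold change does not use the control libraries. Antibiotic against control had 0.03 (interval −0.13 to 0.18, adjusted p = 0.926).

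Probes that followed miR-16 most closely were miR-2132 (r = 0.89), the shared probe for miR-106a and miR-17 (0.85) and the epithelial miR-200c (0.85), with 0.79, 0.75 and 0.75 after removing the group means. Markers of cell types also moved in cecal transfer against control, where 11.9% of all tested probes were called lower and 18.1% higher. Of 8 epithelial markers, which mark the cells lining the gut, 5 fell and 0 rose, and 2 fell with quantile normalisation. Their summed signals were 31332 to 43975 in control and 27391 to 31959 in cecal transfer libraries. Of 3 erythroid markers 2 rose, with 1128 to 1381 and 1466 to 1981 units. The part of these markers' cell types in the values of miR-16 was not tested, and in bulk RNA fewer cells of a type and less of a miRNA per cell cannot be told apart.

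miR-15a and miR-15b are the partners of miR-16 in its clusters and share its action on Bcl2 and cyclins. miR-15a had 2228, 2268, 2536 and 2074 units in control libraries, 2266, 2061, 2436 and 2237 in antibiotic and 2321, 2184, 2134 and 2078 in cecal transfer ones. miR-15b had 2434, 2362, 2720 and 2096 in control libraries, 2696, 2384, 2931 and 2559 in antibiotic and 2525, 2615, 2285 and 2408 in cecal transfer ones. Every pair of groups overlapped for both, and within-group coefficients of variation were between 4.77% and 10.7%.

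Their intervals were narrow. Cecal transfer against control had a log2 fold change of −0.06 for miR-15a (SE 0.07, interval −0.22 to 0.10, adjusted p = 0.625) and 0.04 for miR-15b (SE 0.09, interval −0.15 to 0.22, adjusted p = 0.815). Against antibiotic the values were −0.05 (interval −0.20 to 0.11) and −0.10 (interval −0.29 to 0.08). Antibiotic against control gave −0.02 (interval −0.18 to 0.14) and 0.14 (interval −0.05 to 0.32).

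miR-15a and miR-15b, from different chromosomes, varied together over the 12 libraries (r = 0.76, and 0.90 with the group means removed). miR-15a and miR-16, with neighbouring hairpins, had 0.35 and 0.23, and miR-15b and miR-16 had 0.44 and 0.49. The libraries share the scaling factor between probes, and the part of probe similarity in these values was not tested. Control replicate 3 was highest and control replicate 4 lowest among controls for miR-15a, miR-15b and miR-16. Outside the family miR-15a was followed most closely by miR-1839-5p (0.86), let-7g (0.77) and miR-148b (0.75), and miR-15b by miR-151-5p (0.80), miR-191 (0.79) and miR-140 (0.78). For miR-195 they were miR-1966 (0.62), miR-30b (0.58) and miR-690 (0.55), and for miR-497 miR-1224 (0.81), miR-19a (0.78) and miR-191 (0.71). With the group means removed, these r were, in the same order, 0.88, 0.80 and 0.77 for miR-15a and 0.84, 0.85 and 0.74 for miR-15b. They were 0.55, 0.76 and 0.55 for miR-195 and 0.43, 0.80 and −0.03 for miR-497, so miR-191 followed miR-497 only between groups.

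**Figure D4:**
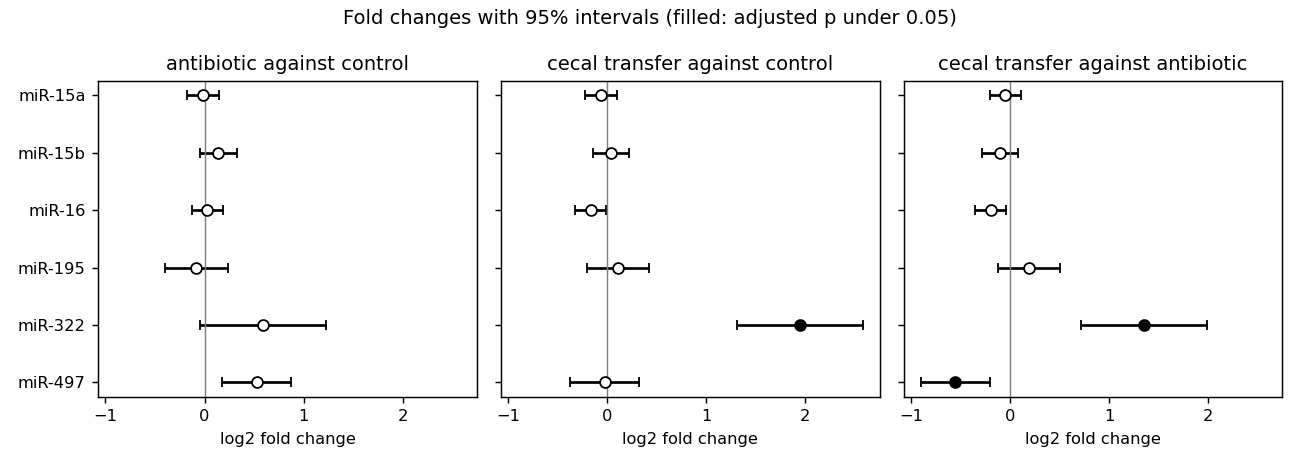
Log2 fold change (horizontal axis) of each member in the 3 comparisons, with 95% intervals from the limma fit (n = 4 per group); filled points have an adjusted p under 0.05. miR-322 stands at 1.94 and 1.35 in the cecal transfer comparisons, miR-497 at −0.55 against antibiotic, and the intervals of miR-15a, miR-15b and miR-195 span 0 in all 3.

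Taking the members as a list, 1 of 6 was called in cecal transfer against control and 2 of 6 in cecal transfer against antibiotic, shares of the same order as the 30.1% and 32.7% over all tested probes. The median log2 fold change of the 6 was 0.01 against control and −0.07 against antibiotic, beside 0.05 and 0.04 over the 226 probes. In antibiotic against control it was 0.08, beside 0.01. The 2 cecal transfer comparisons share the transfer libraries and are not independent of each other. By the moderated F test over the 3 groups, miR-322 (adjusted p = 0.000678) and miR-497 (adjusted p = 0.0253) passed, as did 32.3% of the tested probes, and miR-16 had 0.0941.

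**Figure D5:**
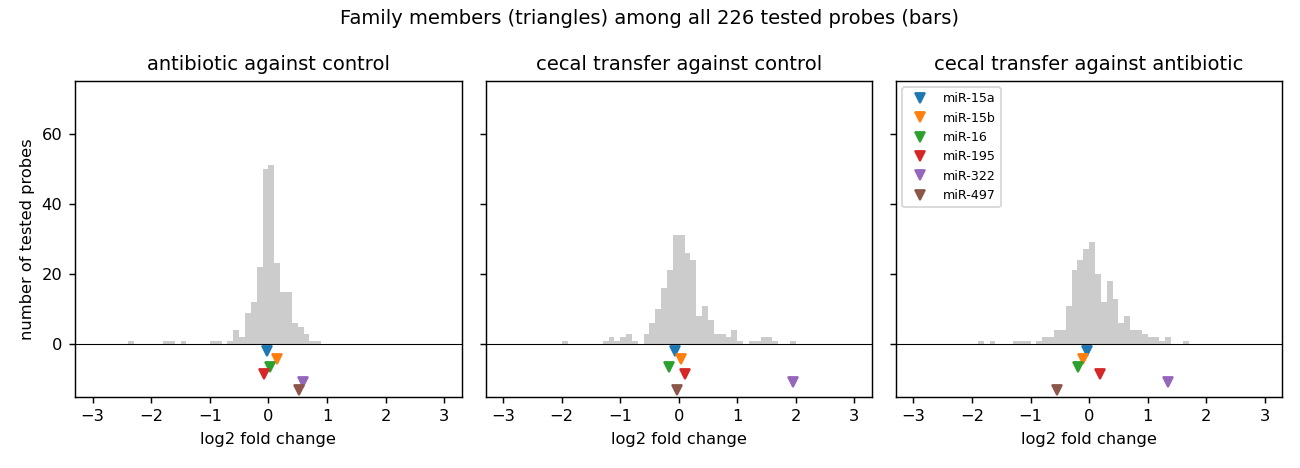
Log2 fold changes of the 226 tested probes (grey bars, number of probes per 0.1 on the log2 scale) and of the 6 members (triangles, at arbitrary heights below the bars) in the 3 comparisons. Except for miR-322 at 1.94 and 1.35, and for miR-497 at −0.55 against antibiotic and 0.53 in antibiotic against control, where miR-322 had 0.59, the triangles lie within 0.2 of 0.

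The near-seed miRNAs miR-103 and miR-107, hosted by pantothenate kinase genes, carry the letters of the family seed shifted by 1 base.
miR-103: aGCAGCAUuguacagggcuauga
miR-107: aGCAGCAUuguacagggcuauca
With capitals again at bases 2 to 8, miR-103 had 747 ± 87.5, 772 ± 91.6 and 675 ± 39.6 units in control, antibiotic and cecal transfer libraries, and miR-107 had 181 ± 24.3, 185 ± 23.5 and 198 ± 23.4. Neither passed in any comparison. In cecal transfer against antibiotic the log2 fold change was −0.19 for miR-103 (adjusted p = 0.188) and 0.10 for miR-107 (adjusted p = 0.599).

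Other miRNAs that act on the cell cycle were read from fixed lists. Of 16 tested restraining miRNAs outside the family, 3 rose and 3 fell in cecal transfer against control (median log2 −0.08), a share near the 30.1% called over all tested probes. Those that rose were miR-24 (log2 0.73), which acts on E2F2, miR-29c (0.39) and miR-29a, and those that fell were let-7i (−0.34), miR-29b (−0.28) and let-7d. Against antibiotic 2 rose and 2 fell, namely miR-24 (0.76), miR-29c (0.33), miR-29b (−0.30) and let-7i (−0.21). In cecal transfer against control 11.9% of all tested probes were called lower. Of 9 tested promoting probes, those of the miR-17-92 cluster, its paralogs and the miR-221 pair, 5 fell and 0 rose against control (median −0.30). They were miR-93 (−0.51), the probes for miR-20a and miR-20b (−0.39) and for miR-106a and miR-17 (−0.33), miR-25 (−0.30) and miR-106b. Against antibiotic 5 fell and miR-18a rose (0.62), where 12.8% of all tested probes were called lower and 19.9% higher. The 5 that fell in each comparison stayed 5 in number with median centring, quantile normalisation and TMM factors, while the call of miR-18a was lost under each. Of the restraining miRNAs against control, median centring called 2 higher and 4 lower, TMM factors 2 and 5, and quantile normalisation 2 and 0. Against antibiotic these settings called 1 higher and 2 lower, 2 and 2, and 1 and 0. In antibiotic against control none of either list passed.

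Markers of other cell types also differed in the comparisons where miR-322 was higher, where 30.1% and 32.7% of all tested probes were called. Of 4 tested smooth muscle and fibroblast markers 3 rose and 0 fell in both cecal transfer comparisons, with summed signals of 28183 to 35486 in control libraries, 31969 to 34402 in antibiotic and 38997 to 46958 in cecal transfer ones. Of 8 epithelial markers 4 fell against antibiotic. Of 5 leukocyte markers 2 rose against control and 3 against antibiotic, with sums of 1450 to 2644, 1781 to 2079 and 2029 to 2714 units. Of the 3 erythroid markers all rose against antibiotic. Of 2 endothelial markers 1 fell in each, and of 3 tested striated muscle markers 1 rose in each. No deposited value was 0, and none of these markers passed in antibiotic against control. Scaling set several of these counts. With median centring, the smooth muscle and fibroblast markers called higher were 1 against control and 0 against antibiotic, and with quantile normalisation 2 and 1. The leukocyte markers called higher were then 1 and 1, and 0 and 0, while the erythroid ones were 2 and 0 under both. With TMM factors the smooth muscle and fibroblast markers called higher were 2 and 3, the leukocyte ones 2 and 2 and the erythroid ones 2 and 1. Median centring left 5 and 5 epithelial markers called lower, and quantile normalisation 2 and 4. No called marker turned its sign under these scalings, and the leukocyte calls lost against control kept log2 fold changes of 0.34 to 0.40, beside 0.42 for miR-155 and 0.53 for miR-142-5p in the main setting. The part of a changed cell mix in the level of miR-322 was not tested.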

How the data were processed

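RNA of 12 ileum libraries was read, per the labels' protocols, on the NanoString nCounter mouse miRNA panel of version 1.5, which counts tagged miRNAs without amplification. The authors deposited normalised signal for 599 probes (566 mouse, 33 herpesvirus). The sources used here name neither the scaling software nor any correction by control probes. Divided by the lowest value of its library, 100% of the values were whole within 0.01, which gave recovered counts. Because the table holds signal, limma 3.58.1 (R 4.3.3) was the main test. It was fitted to log2(signal + 1) of mouse probes above 32 units in at least 4 libraries, over all 12 libraries, with a variance trend and no covariate. Fold changes on this scale understate weak probes. P-values were adjusted by Benjamini-Hochberg over 226 probes in each comparison. The 15 alternatives, besides each library left out, included edgeR (4.0.16) and DESeq2 (1.42.0), both on recovered counts. The fit was tested on simulated data. Groups follow the sample descriptions, replicates are numbered in deposit order, and all libraries carry 1 batch label. Named miRNAs are the members, same-seed and cluster relatives, for each member the 3 probes of highest Pearson r, and called members of the cell-cycle and cell type lists. Members and lists were chosen with earlier results of these data known. Sequences are RefSeq's on GRCm38.p6. Counting intervals cover counting error only.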

Additional observations from a re-analysis of the deposited data

Results flagged for a closer look

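In a group of 4 libraries, 1 library was singled out where its gap to the nearest other as a share of the group's range exceeded Dixon's 95% limit. The 54 probes examined were the members, their relatives, the probes closest to them and the called probes of the cell-cycle and marker lists. Over these and 3 groups, 11 of 162 groups met this, near the about 1 in 20 that chance gives. Of the 18 groups of family members 0 did. Some probes were chosen for following the members, so the groups are not independent. Antibiotic replicate 2 stood apart for miR-10a, at 740.6 units with the others at 401.5 to 438.5. The same library stood apart for miR-450a-5p, the cluster neighbour of miR-322, at 123.4 units with the others at 89.75 to 94.23, and it was the antibiotic library highest in miR-322. Cecal transfer replicate 2 was highest for the probe of miR-106a and miR-17, at 2157 units with the others at 1870 to 1916, and was also the cecal transfer library highest in miR-16. Control replicate 1 was lowest for miR-1224, at 136.1 units with the others at 150.9 to 153.6. Antibiotic replicate 2 was also the lowest antibiotic library for let-7i, at 3638 units with the others at 4036 to 4065, and for miR-25, at 1920 units with the others at 2158 to 2191. Control replicate 4 was lowest for miR-106b, at 408.9 units with the others at 426.2 to 428.5. Among the markers, miR-142-5p stood apart in control replicate 3, at 54.46 units with the others at 41.23 to 42.51, and in cecal transfer replicate 1, at 75.32 units with the others at 61.38 to 63.12. Cecal transfer replicate 1 was also highest for miR-451, at 1579 units with the others at 1142 to 1205. Antibiotic replicate 1, the library highest in miR-497, was highest for the striated muscle miR-1, at 1162 units with the others at 615.4 to 651.2. Whether these libraries stand apart beyond chance was not tested.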

How the results depend on the processing

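The rise of miR-322 against control passed under all 15 other settings (log2 1.82 to 2.25) and with each library left out (1.74 to 2.21). Against antibiotic it passed under 14 of 15, all but depth as a covariate (1.98), and with each library left out (1.20 to 1.63). miR-497 in cecal transfer against antibiotic passed under 10 of 14 settings. It did not pass with background subtracted (−0.55), DESeq2 (−0.61), depth as a covariate (−0.0855, SE 0.45) or thinning (−0.54). With a library left out it ranged from −0.64 to −0.43. The filter of 100 units removed miR-497 and miR-195. miR-16 against control passed with TMM factors (−0.22), edgeR (−0.21) and DESeq2 (−0.21), ranging from −0.21 to −0.11 with a library left out. Against antibiotic it passed with median centring (−0.28), TMM factors (−0.22), the filter of 100 (−0.19), robust moderation (−0.19), array weights (−0.19), only the groups compared (−0.19), edgeR (−0.22) and DESeq2 (−0.22), ranging from −0.24 to −0.14. Members called against control were 2 with TMM factors, edgeR and DESeq2 (1 to 2 with a library left out). Against antibiotic they were 3 with median centring, TMM factors, robust moderation, array weights, only the groups compared and edgeR, 1 with background subtracted, 0 with depth as a covariate and 1 with thinning (1 to 3). Depth as a covariate turned the sign of miR-195 in all 3 comparisons, of miR-15a against control (0.09) and antibiotic (0.26), of miR-15b against antibiotic (0.08) and of miR-497 against control (0.20), none of them called. Their SEs were larger in that fit than in the main one. Other settings also turned signs of uncalled changes, among them miR-497 against control with background subtracted (0.11), thinning (0.13) and array weights (0.01). So did median centring, TMM factors, edgeR and DESeq2 for miR-15b against control, and quantile normalisation for miR-15a against antibiotic. Probes called were 23 with depth and 42 with thinning against control (47 to 67 with a library left out), and 161 with no filter and 0 with depth against antibiotic (55 to 82). In antibiotic against control they were 0 in the main limma fit, with 34 at an unadjusted p under 0.05, and 0 with edgeR. They were 2 with quantile normalisation, 1 without the variance trend and 3 with DESeq2 (0 to 8 with a library left out). The causes were not tested. The titles of 2 control and 2 cecal transfer libraries share a number (38 and 39), which nothing ties to a litter, and deviations from the group means of same-numbered libraries had r = 0.08 and −0.28 over 226 probes. Chosen after seeing the data, limma on these 4 libraries with that number as a replicate block gave 1.36 for miR-322 against control (adjusted p = 0.498) and called 0 members and 0 probes, with 19 at an unadjusted p under 0.05. This fit uses 4 of the 8 libraries, 2 per group, too few to decide whether the rise of miR-322 holds with a block. The antibiotic libraries share no number with the others. Of the members miR-497 had the fewest counts, 115 summed over the 4 antibiotic libraries.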
